A study of Mus musculus with 120 samples.

Results

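Alx1, Prrx1, Twist1, Tcf15, Meis1, Meis2, Foxc1 and Foxc2 are 8 transcription factor genes that are known for their roles in the mesenchyme of the head and in neighbouring mesoderm. They were chosen by name for their levels in the embryo libraries described here, from a table of 23154 genes. All 8 passed the filter on low counts in the embryos, and 7 passed it in the stem cells, where Alx1 was too low. Their RNA was sequenced in 18 libraries from embryos of ICR mice, an outbred stock, and in 10 from the mouse embryonic stem cell line E14/TG2A. Embryos at 6.5 days post coitum (E6.5) gave the groups Epi and ExE, those at 7.0 days (E7.0) the groups A, P and ExE, and those at 7.5 days (E7.5) the groups A, AM, P and ExE. Each of these 9 groups had 2 libraries. The labels do not spell out A, P and AM, so the groups are called by these letters. No embryo group carried a genetic change or a treatment. The stem cells were wild type (WT) or lacked the enhancer Enh9E after CRISPR-Cas9 deletion (KO). They were taken undifferentiated on day 0 (D0) or as neural progenitors on day 8 (D8), with 2 WT and 3 KO libraries per day. The labels say neither whether the KO libraries came from 1 clone or several nor whether replicates came from separate embryos, pools or cultures, so p-values reflect the spread among the libraries alone, possibly a technical one.

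Head mesenchyme is the loosely packed tissue around the forming brain. It comes first from mesoderm that leaves the primitive streak during gastrulation and moves forward, and later also from the neural crest. Factors of several families act in it: homeobox proteins of the paired type (Alx1, Prrx1), basic helix-loop-helix (bHLH) proteins that bind E-boxes as dimers with E proteins and are held back by Id proteins (Twist1, Tcf15), TALE homeobox proteins that bind DNA with Pbx partners (Meis1, Meis2), and forkhead proteins (Foxc1, Foxc2).

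The embryo libraries held 5.15 to 17.1 M counts (M for 1000000 counts) and the cell libraries 5.96 to 13.2 M. Values below are counts per 1000000 counts of the library (CPM) after scaling by trimmed means (TMM). A level of a gene in 2 libraries is given as replicate 1 and then replicate 2, numbers that only name the libraries. Because embryo values chose these genes, their differences between embryo groups are given as a description with no test. In bulk tissue, fewer cells of a type and less RNA per cell cannot be told apart. These genes also differed between the E7.5 libraries of a group: in A, AM and P, replicate 1 lay above replicate 2 in 21 of 24 pairs of values. Each group gave 8 of these pairs from the same 2 libraries, so they are not independent, and no share over all genes was taken.

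The promoters of 5 of the 8 genes were listed in the RefSeq table for GRCm38.p6, the assembly also known as mm10. The windows of Twist1 and Foxc1 are shown because both genes had the same order of levels at E7.5, with P and AM above A, and because both windows lie directly before the annotated gene. Each holds the 250 bases before the start on the + strand, at chr12:33957421-33957670 for Twist1 and chr13:31806396-31806645 for Foxc1. Capitals would mark a match to any of 4 motifs, and neither window holds one.
Twist1: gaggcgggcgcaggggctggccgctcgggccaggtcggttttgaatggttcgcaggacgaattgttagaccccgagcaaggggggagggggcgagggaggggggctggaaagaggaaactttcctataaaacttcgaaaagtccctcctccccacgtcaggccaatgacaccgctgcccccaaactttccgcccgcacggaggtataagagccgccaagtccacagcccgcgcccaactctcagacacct
Foxc1: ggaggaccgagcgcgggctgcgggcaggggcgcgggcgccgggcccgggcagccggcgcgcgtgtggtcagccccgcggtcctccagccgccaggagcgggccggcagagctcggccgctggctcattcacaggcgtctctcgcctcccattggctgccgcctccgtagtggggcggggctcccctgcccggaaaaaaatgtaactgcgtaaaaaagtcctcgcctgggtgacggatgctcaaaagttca
Both windows are rich in G and C, with 62.4% for Twist1 and 70.8% for Foxc1. The motifs were searched on both strands: the E-box CANNTG of bHLH proteins, the MEIS core TGACAG, the homeobox core TAATTA and the forkhead core GTAAACA. Over the 5 windows there were 2 matches, an E-box in that of Meis1 and a homeobox core in that of Prrx1. Of all 32851 promoter windows of the same length, 66.2% held the E-box, 15.9% the MEIS core, 4.84% the homeobox core and 3.17% the forkhead core. The windows of Meis1, Meis2 and Prrx1 lie before a start inside the annotated gene and are not printed.

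Alx1 encodes a homeobox factor needed for the skull vault and the midface and lies at chr10:103007847-103029549. It was near the floor until E7.0 and then high in A and AM alone. At E6.5 its level was 0.570 and 0.0990 CPM in Epi and 0 and 0.141 CPM in ExE. At E7.0 it was 0.684 and 1.98 CPM in A, 0.287 and 0.761 CPM in P, and 0.219 and 0 CPM in ExE. These libraries held at most 14 counts each of the gene, and the ranges of A and P overlapped. At E7.5 Alx1 stood at 69.0 and 25.9 CPM in A and at 96.8 and 43.3 CPM in AM. In P of the same stage it was 0.604 and 0.393 CPM, from 7 and 3 counts, and in ExE 0.636 and 2.77 CPM. Both A libraries and both AM libraries thus lay far above both P libraries, while the ranges of A and AM overlapped. On the log2 scale P differed from A by -6.50 ± 0.91 (SE), AM from P by 7.07 ± 0.93, and AM from A by 0.56 ± 0.66. Between libraries of the same number AM held 1.4 and 1.67 times the level of A. Between E7.0 and E7.5 the log2 fold change within A was 5.23 ± 0.84.

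Prrx1, a homeobox factor of limb and facial mesenchyme at chr1:163245119-163315145, was detected mainly at E7.5 and did not separate the regions. No counts were found in the 4 libraries of E6.5, which allows up to 0.159 CPM in Epi and 0.165 CPM in ExE when 3 counts over the group are taken as the limit of a count of 0. At E7.0 Prrx1 had 0.152 and 0.142 CPM in A, 0.0575 and 0.507 CPM in P, and 0.0546 and 0 CPM in ExE, from 4 counts or fewer per library. The E7.5 levels were 5.52 and 0.939 CPM in A, 4.39 and 1.65 CPM in AM, 7.33 and 1.70 CPM in P, and 1.35 and 0 CPM in ExE. In each of A, AM and P the first replicate held over 2 times the level of the second, and the ranges of the 3 regions overlapped. P differed from A by a log2 fold change of 0.48 ± 1.20, and between libraries of the same number P held 1.33 and 1.81 times the level of A. The sign of the fold turned to -0.99 without replicate 1 of P and to -0.33 without replicate 2 of A.

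**Figure D1:**
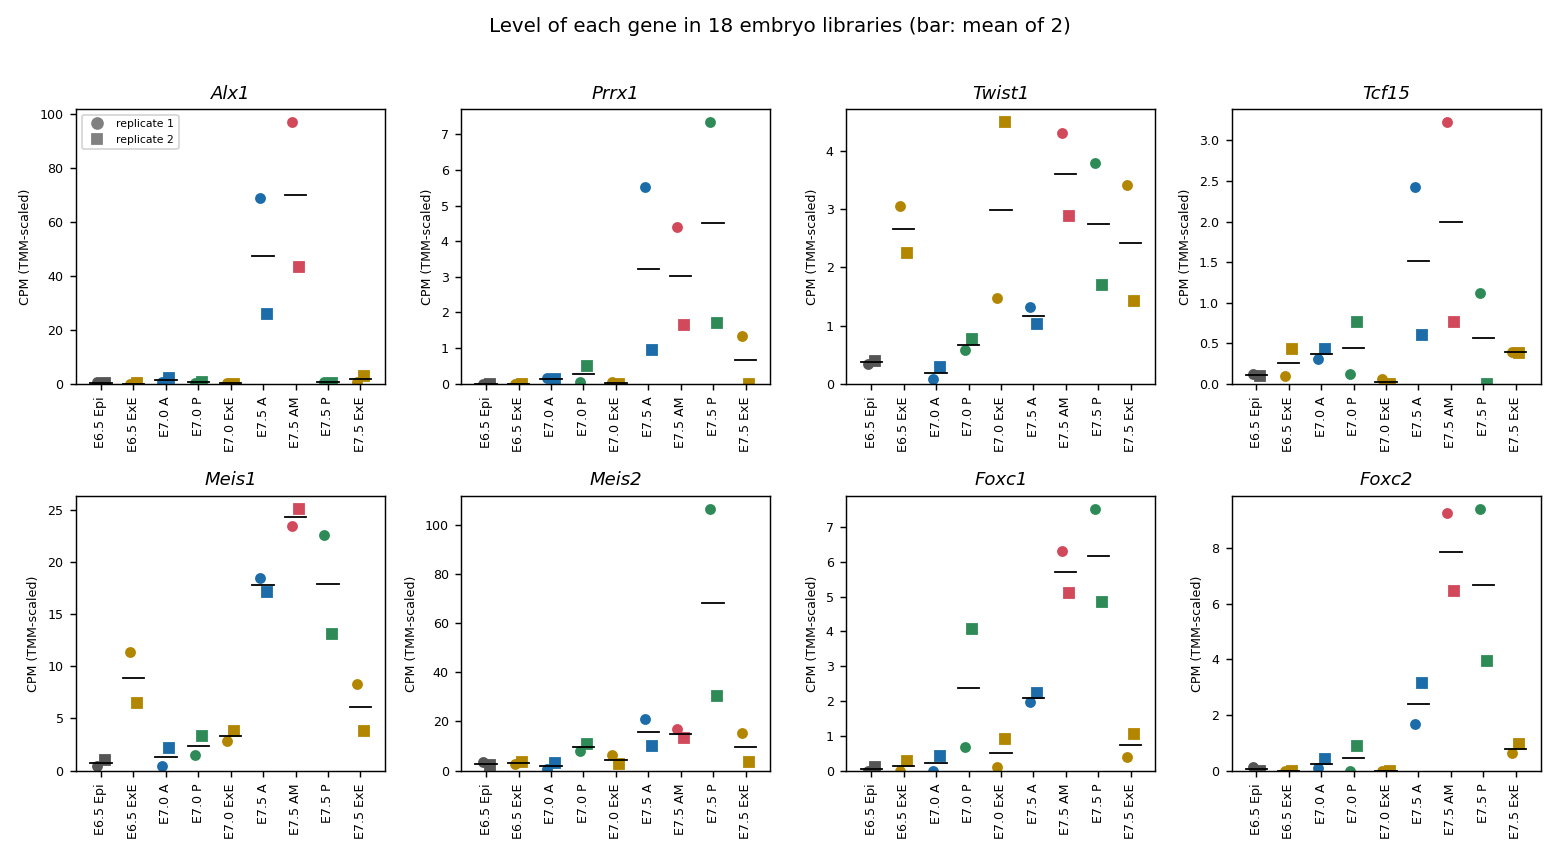
Each panel plots 1 gene's level in CPM (y axis, from 0, with a scale of its own) in the 18 embryo libraries, grouped by stage and region (x axis). Circles are replicate 1, squares replicate 2 and bars the mean of the 2. Alx1 was high in A and AM at E7.5 only, Meis2 was highest in P at E7.5, and Twist1 and Meis1 were also present in ExE at E6.5.

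Twist1 encodes the bHLH factor whose loss in head mesenchyme leaves the cranial neural tube open, and lies at chr12:33957671-33959831. Its level was not limited to the embryo proper. At E6.5 it was 3.06 and 2.25 CPM in ExE against 0.342 and 0.396 CPM in Epi. ExE held 1.47 and 4.50 CPM at E7.0 and 3.42 and 1.43 CPM at E7.5. Within the embryonic regions of E7.0 it was 0.0760 and 0.283 CPM in A, from 3 counts in all, and 0.575 and 0.761 CPM in P. At E7.5 it was 1.32 and 1.02 CPM in A, 4.32 and 2.89 CPM in AM, and 3.80 and 1.70 CPM in P. A was lowest of the 3 regions in both libraries, and the ranges of AM and P overlapped with each other and with that of ExE. At E7.5 the log2 fold change was 1.23 ± 0.76 for P against A and 1.61 ± 0.76 for AM against A.

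Tcf15, also known as paraxis, encodes a bHLH factor that is required for somites to become epithelial. It lies at chr2:152143056-152149097. Its counts were low throughout the embryo table, and no library before E7.5 held more than 6. At E7.5 it was 2.43 and 0.597 CPM in A, 3.22 and 0.757 CPM in AM, 1.12 and 0 CPM in P, and 0.397 and 0.382 CPM in ExE. The ranges of A, AM and P overlapped. Between libraries of the same number, P held 0.462 and 0 times the level of A, and AM 1.33 and 1.27 times that of A. The log2 fold change was -1.36 ± 1.27 for P against A and 1.73 ± 1.28 for AM against P. For P against A it ran from -7.20 without replicate 1 of P, which leaves P with 0 counts and makes the value depend on the fit, to -0.08 without replicate 1 of A.

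Meis1 lies at chr11:18880428-19019651 and Meis2 at chr2:115861264-116067537. Their proteins bind as partners of Pbx and Hox proteins. These paralogs had different patterns, with Meis1 nearly even across the regions of E7.5 and Meis2 highest in P. Meis1 at E7.5 was 18.5 and 17.1 CPM in A, 23.4 and 25.1 CPM in AM, 22.6 and 13.1 CPM in P, and 8.34 and 3.82 CPM in ExE. The AM libraries lay above all others, by a log2 fold change of 0.45 ± 0.57 against A and 0.44 ± 0.57 against P. The fold of P against A was 0.01 ± 0.57 on the same scale, and its sign changed with the scaling. Meis2 at E7.5 was 21.0 and 9.99 CPM in A, 16.8 and 13.2 CPM in AM, 106.2 and 30.2 CPM in P, and 15.3 and 3.63 CPM in ExE. Both P libraries exceeded every library of A, AM and ExE, although they differed by over 3 times between themselves. The log2 fold change of P against A was 2.13 ± 0.77 and that of AM against P was -2.19 ± 0.77.

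Before E7.5 the paralogs also differed. At E7.0 Meis2 was 0.456 and 3.26 CPM in A, 8.10 and 10.8 CPM in P, and 6.34 and 2.52 CPM in ExE, so P lay above A in both libraries, with a log2 fold change of 2.45 ± 0.85. Meis1 at E7.0 was 0.456 and 2.12 CPM in A, 1.49 and 3.30 CPM in P, and 2.84 and 3.78 CPM in ExE, with overlapping ranges of A and P. At E6.5 Meis1 was 11.3 and 6.48 CPM in ExE against 0.456 and 0.990 CPM in Epi, while Meis2 was 2.70 and 3.66 CPM in ExE and 3.31 and 2.28 CPM in Epi. Meis1 thus separated the tissues of E6.5 and Meis2 did not.

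Foxc1 lies at chr13:31806646-31810635 and Foxc2 at chr8:121116171-121118895. The forkhead factors they encode overlap in function in somites, heart and vessels. Both were nearly absent at E6.5, with at most 2 counts per library, and both were lower in A than in AM and P at E7.5. Foxc1 at E7.0 was 0 and 0.425 CPM in A, from 3 counts in all, and 0.689 and 4.06 CPM in P. At E7.5 it was 1.97 and 2.22 CPM in A, 6.31 and 5.09 CPM in AM, 7.51 and 4.85 CPM in P, and 0.397 and 1.05 CPM in ExE. Foxc2 at E7.0 was 0.0760 and 0.425 CPM in A and 0 and 0.888 CPM in P, with overlapping ranges, and had no counts in ExE. At E7.5 it was 1.67 and 3.16 CPM in A, 9.26 and 6.47 CPM in AM, 9.41 and 3.93 CPM in P, and 0.636 and 0.954 CPM in ExE. For both genes AM and P overlapped, both lay above A, and A lay above ExE. The log2 fold change of P against A was 1.56 ± 1.03 for Foxc1 and 1.48 ± 1.0 for Foxc2, and that of AM against A was 1.44 ± 1.03 and 1.71 ± 1.01.

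**Figure D2:**
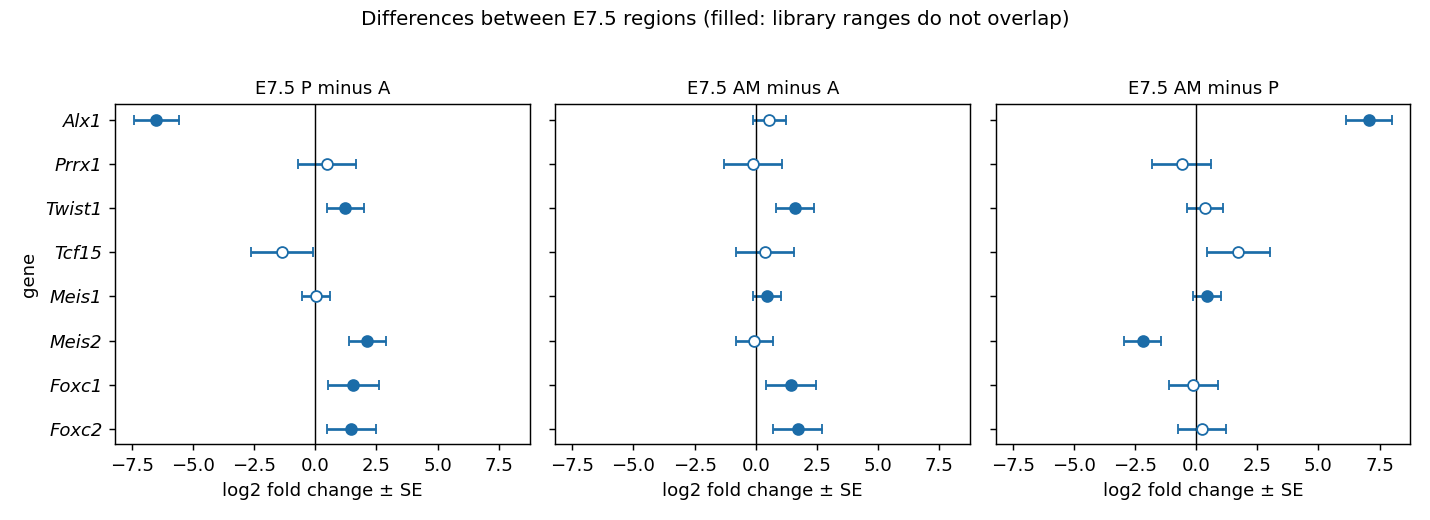
Each panel plots the log2 fold change (x axis) of the 8 genes (y axis) for 1 pair of E7.5 regions, with the SE as bar. Filled points are genes whose 2 libraries in one region lay outside the range of the other. Alx1 lay at -6.50 for P against A and at 7.07 for AM against P, and Meis2 lay on the opposite side in both.

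The regional patterns of the 8 genes can be set beside those of all 14403 genes tested. P lay above A at E7.0, with no overlap between libraries, for 3 of the 8 genes (Foxc1, Meis2 and Twist1), against 16% of all genes. At E7.5 this held for 4 (Foxc1, Foxc2, Meis2 and Twist1), against 18.1%, and P lay below A for Alx1 alone, against 17.5%. AM lay above A for Foxc1, Foxc2, Meis1 and Twist1, against 22.3%. AM lay above P for Alx1 and Meis1, against 18.6%, and below P for Meis2, against 16.1%. The median log2 fold change of the 8 genes was 0.86 for P against A at E7.5 (all genes 0.02), 0.50 for AM against A (0.02) and 0.30 for AM against P (0.02). As these values chose the genes, nothing is read from these shares.

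Within A, both libraries of E7.5 lay above both of E7.0 for 8 of 8 genes, against 25.8% of all genes. The levels in A at both stages were among those that chose the genes, so nothing is read from this share. In P, whose levels also chose the genes, the ranges of the stages overlapped for Alx1 and Tcf15 and were apart for the rest. Alx1 in P had 0.287 and 0.761 CPM at E7.0, then 0.604 and 0.393 CPM at E7.5. Tcf15 in P had 0.115 and 0.761 CPM, then 1.12 and 0 CPM. No share over all genes was taken for P, so nothing is read from this. Beside Alx1, the log2 fold change within A was 3.88 ± 0.68 for Meis1, 3.18 ± 0.86 for Meis2, 3.40 ± 1.26 for Foxc2 and 2.07 ± 1.35 for Tcf15. The last 2 rest on 4 counts of Foxc2 and 7 of Tcf15 in A at E7.0. Over other settings and left-out libraries they ran from 2.52 to 4.84 for Foxc2 and from 0.76 to 2.76 for Tcf15. Prrx1, Twist1 and Foxc1 had 3 counts each over the E7.0 libraries of A, so their levels are given above and no fold is stated. For the same reason no median over the 8 genes is given for comparisons with A of E7.0.

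Marker lists moved within A between the stages as well, and their part in the levels of the 8 genes was not tested. The summed level of the 11 visceral endoderm genes was 1520 and 3290 CPM at E7.0 and 12.8 and 574 CPM at E7.5, with a median log2 fold change of -3.32. The 12 genes of definitive endoderm and axial mesoderm summed to 231 and 713 CPM and then to 118 and 116 CPM, with a median of -1.73. Both lists were thus lower at E7.5. The 10 neural crest genes summed to 7.45 and 18 CPM and then to 42.9 and 28.6 CPM, with a median log2 fold change of 2.78 over the 8 tested. The sums of the 14 genes of the mesenchymal state overlapped between the stages, at 69.3 and 228 CPM and then 213 and 269 CPM, although 14 of 14 had a fold above 0 (median 1.42). Presomitic mesoderm and somite genes summed to 2.13 and 10.2 CPM and then to 12.9 and 32.5 CPM. Those of pharyngeal and cardiac mesoderm went from 61.4 and 69.8 CPM to 119 and 150 CPM. Those of extra-embryonic mesoderm went from 2.28 and 14.3 CPM to 20.8 and 35.5 CPM. The neural ectoderm sum fell from 274 and 289 CPM to 216 and 119 CPM, although its median log2 fold change was 0.18.

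The name of head mesenchyme fits the known roles of these genes, but in these libraries the 8 did not form 1 regional pattern: at E7.5 Alx1 alone was higher in every library of A and AM than in P, and Meis2 was the reverse. Of 6 relatives, Meis3 had 9.87 and 10.6 CPM in A, 10.1 and 15.6 CPM in AM, and 7.51 and 10.6 CPM in P at E7.5, while Alx4 and Twist2 stayed at or below 0.482 CPM and Scx at or below 0.152 CPM in those libraries. Sox10 and Foxd3, defining markers of the neural crest, were at or below 0.262 CPM and at 0 counts, respectively, in all 6 libraries of A, AM and P at E7.5. For Foxd3 this allows 0.0953 CPM in A, 0.103 CPM in AM and 0.156 CPM in P. Other genes of the neural crest list were present in these libraries, with Msx2 at 11.1 to 46.3 CPM, Sox9 at 1.44 to 28.45 CPM and Dlx5 at 0.411 to 10.8 CPM.

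Other marker lists moved with the regions, and their part in the levels of the 8 genes was not tested. The summed level of 12 genes of presomitic mesoderm and somites at E7.5 was 12.9 and 32.5 CPM in A, 26.0 and 83.3 CPM in AM, and 151 and 179 CPM in P, with Pax1 and Uncx at 0 throughout. That of 10 genes of the neural ectoderm was 216 and 119 CPM in A, 156 and 82.7 CPM in AM, and 13.6 and 7.34 CPM in P, with Zic1 at 0 in AM and P and Sox3 at 0 in AM. In AM this sum was mostly Otx2 (96.1 and 57.5 CPM) and Hesx1 (55.1 and 21.5 CPM). The median log2 fold change of this list's 8 tested genes was -2.74 for AM against A, with 1 above 0. For P against A it was -3.51, with 0 above 0. Between A and P, Meis2, Foxc1, Foxc2 and Twist1 were higher where the first list was higher, and Alx1 where the second was. Neither order is particular to these lists. The sums of pharyngeal and cardiac mesoderm and of extra-embryonic ectoderm were also higher in both A libraries than in P. That of the mesenchymal state was higher in both P libraries than in A. In AM the means of Twist1 (3.61 CPM) and Foxc2 (7.86 CPM) lay above those of P (2.75 and 6.67 CPM), with overlapping ranges. The mean of Alx1 in AM (70.1 CPM) lay above that in A (47.4 CPM), also with overlapping ranges. Each of these differences changed sign when 1 library was left out. A list of 12 genes of definitive endoderm and axial mesoderm summed to 118 and 116 CPM in A, 1380 and 713 CPM in AM, and 120 and 92.9 CPM in P. The 11 genes of the visceral endoderm summed to 12.8 and 574 CPM in A, 1390 and 7350 CPM in AM, and 562 and 6650 CPM in P. For this last list replicate 2 was higher in every region, the reverse of the order of most of the 8 genes.

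The sums of the other lists overlapped between some of the regions of E7.5. The 13 genes of pharyngeal and cardiac mesoderm summed to 119 and 150 CPM in A, 146 and 281 CPM in AM, and 47.4 and 97.5 CPM in P, so P was lowest. The 14 genes of the mesenchymal state summed to 213 and 269 CPM in A, 454 and 631 CPM in AM, and 595 and 597 CPM in P, so A was lowest. The 10 neural crest genes summed to 42.9 and 28.6 CPM in A, 48.0 and 65.5 CPM in AM, and 30.2 and 69.1 CPM in P. The 5 genes of extra-embryonic mesoderm summed to 20.8 and 35.5 CPM in A, 19.5 and 86.8 CPM in AM, and 25.5 and 85.6 CPM in P. The 9 blood and vessel genes reached 17.6 to 90.9 CPM over the 6 libraries and the 8 of extra-embryonic ectoderm 64.1 to 130 CPM.

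The other genes of the same families and their partners were tested in the embryos with edgeR's quasi-likelihood test, at a Benjamini-Hochberg adjusted p under 0.05 over all genes. None of the 3 relatives tested, 7 TALE partners of the Pbx, Pknox and Tgif families or the 7 E protein and Id genes passed between A and P at E7.0, where 0.00694% of all genes passed in either direction, or at E7.5, where 0.236% did. None passed for AM against A (1.57% of all genes), for AM against P (0.111%) or for A between E7.0 and E7.5 (0.59%). At an unadjusted p under 0.05 these lists gave 0 genes between A and P at either stage, 1 TALE partner for AM against A, 0 for AM against P, and 1 relative and 1 TALE partner for A between the stages. Of all 14403 genes, 493 and 1080 reached this between A and P at E7.0 and E7.5. They numbered 1496 for AM against A, 929 for AM against P and 2301 for A between the stages. DESeq2 called 1 TALE partner in that last comparison and none in the others.

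Few genes of the marker lists passed in edgeR either. For P against A at E7.5, 2 of 9 tested genes of presomitic mesoderm (Msgn1 and Tbx6), 1 of 12 of definitive endoderm (Cpn1) and 1 of 11 of visceral endoderm (Fgg) were higher, and 1 of 8 of neural ectoderm (Otx2) was lower. All 5 calls were lost without replicate 1 of A, when no gene passed, 2 were lost without replicate 2 of A, and 3 without either library of P. For AM against A, 4 of 12 genes of definitive endoderm and 2 of 11 of visceral endoderm were higher, and 2 of 8 of neural ectoderm and 1 of 8 of extra-embryonic ectoderm were lower. Of these 9 calls, 7 were lost without replicate 1 of A, 6 without replicate 1 of AM and 3 without replicate 2 of AM, and those of Cpn1 and Fgg held without any 1 library. For AM against P, Otx2 and the blood gene Gata1 were higher, and within A from E7.0 to E7.5 Fgfr2 was higher and Fgg lower. Otx2 and Gata1 lost these calls without any 1 of the 4 libraries, and Fgfr2 lost its call without replicate 1 of either stage. No other listed gene passed in edgeR, and none passed there between A and P at E7.0. DESeq2 called more genes of some lists. For AM against A it called 7 of 11 visceral endoderm, 6 of 12 definitive endoderm and 3 of 8 neural ectoderm genes. For P against A at E7.5 it called 4 of 8 neural ectoderm, 3 of 11 visceral endoderm and 2 of 12 definitive endoderm genes. The lists of the mesenchymal state, the neural crest and the pharyngeal and cardiac mesoderm gave 0 calls by edgeR in any embryo comparison, with 0 to 6 genes of a list at an unadjusted p under 0.05 and 0 to 3 called by DESeq2.

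Over the 18 embryo libraries the 8 genes were alike to different degrees. Pearson's r of log2(CPM + 1), given as a description over libraries that share stages and regions, was highest for Foxc1 and Foxc2 at 0.918 and lowest for Alx1 and Twist1 at 0.191. Alx1 was most like Tcf15, at 0.814, and Meis2 was most like Prrx1, at 0.859. Twist1 was most like Meis1, at 0.732, the other gene that was higher in ExE than in Epi at E6.5.

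**Figure D3:**
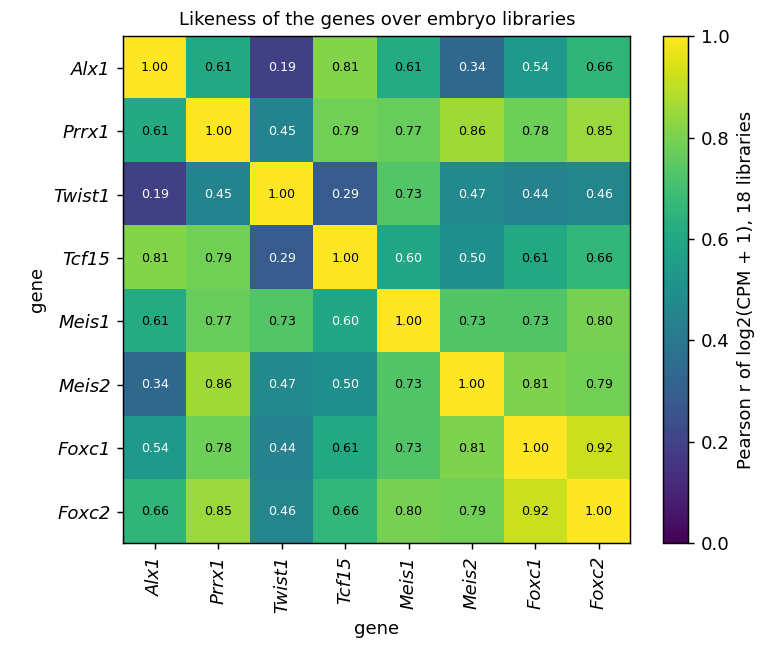
The grid gives Pearson's r of log2(CPM + 1) over 18 embryo libraries for each pair of the 8 genes (both axes), with colour from 0 to 1. The Foxc pair had the highest value, 0.92, and Twist1 with Alx1 the lowest, 0.19.

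Among 10784 genes whose mean reached 5 CPM in at least 1 group, those with the pattern most like Alx1 were Adrb3, a beta-adrenergic receptor (r = 0.943), the forkhead gene Foxd4 (0.927) and Tnc, which encodes the matrix protein tenascin C (0.898). Adrb3 at E7.5 averaged 15.9 CPM in A, 22.2 CPM in AM and 0.892 CPM in P. The closest to Meis2 were Hoxb1, a homeobox gene of the posterior body axis and hindbrain (0.911), Gcdh (0.905) and Pcdh19 (0.899). Hoxb1 at E7.5 averaged 4.64 CPM in A, 11 CPM in AM and 168 CPM in P. For Foxc1 they were Rhbg (0.925), Exoc6b (0.919) and Foxc2, and for Foxc2 Cfap126 (0.945), Pcdh19 (0.941) and Cd109 (0.930). Meis1 was most like Lhfpl2, Colec12 and Pappa (0.887 to 0.903), and Twist1 most like Mmd, Lpp and Serpinh1 (0.895 to 0.930). Prrx1 was most like the TALE gene Pknox2 (0.898), Mef2c (0.886) and Aldh1a2, which makes retinoic acid (0.881). Tcf15 was most like Ntm (0.881), Foxd4 (0.863) and Catip (0.860).

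The stem cell libraries were not used to choose the genes, so the genes were tested there. From D0 to D8, the WT cells showed a rise of Prrx1 and Meis1 and a fall of Tcf15, and the KO cells showed the same with a rise of Foxc1 as well. In WT, 2 of the 7 genes tested rose, against 29.4% of 14629 genes, and 1 fell, against 27.3%. In KO, 3 rose, against 33.4%, and 1 fell, against 31%. Meis2, Twist1 and Foxc2 did not pass in either genotype. The median log2 fold change of the 7 genes is not given, because the fold of Prrx1 rests on 2 counts at D0. Set beside their label as neural progenitors, the D8 cells showed a rise of 8 and a fall of 1 of the 10 neural ectoderm genes in WT, and of 9 and 1 in KO. Pax6, a neural progenitor factor, averaged 0.985 CPM at D0 and 111 CPM at D8 in WT, and 0.551 and 118 CPM in KO. Other lists changed in the same cells, and their part in the changes of these genes was not tested. Of the 14 genes of the mesenchymal state, 8 rose and 2 fell in WT and 10 rose and 2 fell in KO. Of 8 neural crest genes tested, 5 rose and 2 fell in each genotype, and of 7 genes of presomitic mesoderm and somites, 5 rose and 0 fell in WT and 4 rose and 1 fell in KO. Of 9 genes of pharyngeal and cardiac mesoderm, 3 rose and 4 fell in WT and 3 rose and 2 fell in KO.

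Tcf15, which is also known from pluripotent cells that are about to differentiate, was high in undifferentiated cells. Its level at D0 was 33.4 and 46.4 CPM in WT and 40.6, 56.2 and 66.6 CPM in KO. At D8 it was 1.37 and 1.47 CPM in WT and 2.21, 1.90 and 2.10 CPM in KO. Every D8 library lay below every D0 library. The log2 fold change was -4.79 ± 0.33 in WT (edgeR adjusted p = 8.95e-07) and -4.71 ± 0.25 in KO (adjusted p = 9.19e-08).

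Prrx1 was close to 0 at D0, with 0.245 and 0 CPM in WT and 0, 0.226 and 0 CPM in KO, from 2 counts per genotype. At D8 it was 7.59 and 7.37 CPM in WT and 6.95, 9.09 and 4.89 CPM in KO, so every D8 library lay above every D0 library. The rise passed in WT (edgeR adjusted p = 0.000184) and in KO (adjusted p = 2.03e-05). Meis1 was 1.96 and 1.59 CPM in WT and 2.08, 4.07 and 2.69 CPM in KO at D0. At D8 it was 9.72 and 32.9 CPM in WT and 10.1, 26.2 and 20.1 CPM in KO. The groups of the 2 days did not overlap, although the D8 libraries of WT differed by over 3 times. The log2 fold change of Meis1 was 3.58 ± 0.65 in WT (edgeR adjusted p = 0.000654) and 2.66 ± 0.49 in KO (adjusted p = 0.000607).

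**Figure D4:**
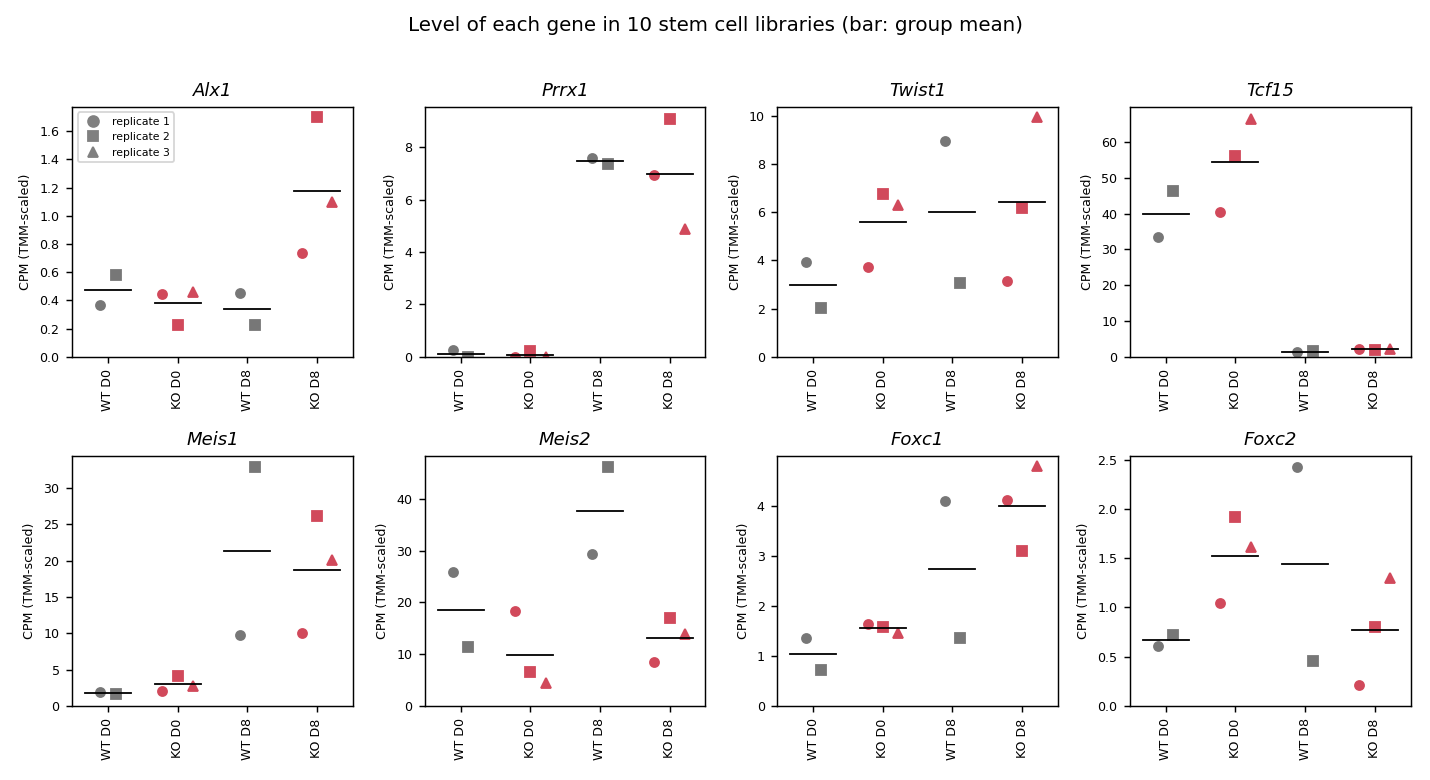
Each panel plots 1 gene's level in CPM (y axis, from 0, with a scale of its own) in the 10 stem cell libraries by genotype and day (x axis). Symbols mark the replicates and bars the group mean. Tcf15 was at 33.4 CPM or more in all D0 libraries and at 2.21 CPM or less in all D8 libraries, and Prrx1 went the other way.

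Foxc1 rested on few counts. Its level was 1.35 and 0.723 CPM in WT and 1.64, 1.58 and 1.46 CPM in KO at D0, and 4.10 and 1.36 CPM in WT and 4.10, 3.10 and 4.79 CPM in KO at D8. The log2 fold change in KO was 1.36 ± 0.44 (edgeR adjusted p = 0.0188), and in WT it was 1.34 ± 0.60 (adjusted p = 0.0746). The KO call was lost in edgeR without replicate 2 or 3 of D0 (adjusted p = 0.0537 and 0.0641) or without replicate 3 of D8 (0.0620). In WT, the gene passed in edgeR without replicate 2 of D8 (adjusted p = 0.0154) and with scaling by total counts (0.0472). The difference between the genotypes was itself 0.02 ± 0.95 (edgeR adjusted p = 0.998).

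Meis2 was 25.9 and 11.3 CPM in WT and 18.3, 6.44 and 4.46 CPM in KO at D0, and 29.3 and 46.2 CPM in WT and 8.52, 17.1 and 14.0 CPM in KO at D8. Its log2 fold change over time was 1.02 ± 0.58 in WT and 0.49 ± 0.49 in KO, neither of which passed (edgeR adjusted p = 0.155 and 0.405). In KO it passed without replicate 1 of D0 (1.28, edgeR adjusted p = 0.0265). Twist1 was 3.92 and 2.02 CPM in WT and 3.72, 6.78 and 6.30 CPM in KO at D0, and 8.96 and 3.06 CPM in WT and 3.16, 6.19 and 9.98 CPM in KO at D8, with overlapping ranges. Foxc2 ran from 0.612 to 1.92 CPM over the D0 libraries and from 0.210 to 2.43 CPM over those of D8. Alx1, which was not tested, ran from 0.226 to 0.579 CPM at D0, was 0.456 and 0.227 CPM in WT at D8, and was 0.737, 1.70 and 1.10 CPM in KO at D8, from at most 17 counts.

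Between the genotypes no member of the set passed. At D0, 0 of 7 were called by edgeR, where 0.246% of all genes were called. At an unadjusted p under 0.05 there were 0 of 7, against 2072 of 14629 genes. At D8, 0 of 7 were called, where 20.5% of all genes were. An unadjusted p under 0.05 was found for 5446 of 14629 genes and for 1 of the 7. This gene was Meis2, whose KO libraries all lay below its WT libraries, with a log2 fold change of -1.52 ± 0.52 and an edgeR adjusted p of 0.0581. DESeq2 called it (adjusted p = 0.025), as did edgeR with scaling by total counts (0.042), and no tool called a member at D0. The difference of the change over time between KO and WT was called for 0 of 7, against 5.26% of all genes. At an unadjusted p under 0.05 there were 0 of 7, against 3760 of 14629 genes, and DESeq2 called none of the 7 either for this difference. For Meis1 this difference was -0.92 ± 0.80 and for Meis2 -0.53 ± 0.76, on the log2 scale. A p that misses the threshold does not show that the genotypes act alike. The genotypes also differed over whole chromosomes. The median log2 fold change of KO against WT was 0.458 at D0 and 0.418 at D8 on chromosome 14. It was 0.292 and 0.371 on chromosome 6, and 0.185 and 0.153 on chromosome 11, which holds Meis1. Over all genes it was 0.01 and -0.06. On chromosome 8, which holds Foxc2, it was -0.164 at D0. The part of these shifts in the folds above was not tested.

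The partners of these factors were tested in the cells as well. Of the 7 TALE partners, 5 rose and 1 fell in WT, and 4 rose and 2 fell in KO. Pknox2 rose by a log2 fold change of 2.54 ± 0.30 in WT and 3.42 ± 0.27 in KO (edgeR adjusted p = 3.16e-05 and 1.12e-06). Tgif1, a TALE repressor, fell by 2.25 ± 0.25 and 2.52 ± 0.21. Of the 7 E protein and Id genes, 5 rose and 0 fell in WT, and 5 rose and 1 fell in KO. Id2, an inhibitor of bHLH dimers, rose by 3.64 ± 0.44 in WT and 3.68 ± 0.35 in KO, and the E protein gene Tcf12 by 2.32 ± 0.23 and 1.57 ± 0.18. Of the relatives, Meis3 rose by 3.64 ± 0.36 in WT and 3.07 ± 0.28 in KO, the only 1 of 3 tested that passed, while Prrx2 had 0.85 ± 0.50 and -0.52 ± 0.38. The calls of Tcf3, Tgif2, Pbx4 and Id4 in WT and of Tcf4 and Id1 in KO were lost when 1 library was left out, with replicate 2 of D8 WT removing all 4 of the first and replicate 2 of D0 KO both of the second.

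Between the genotypes at D8, Pbx2 was lower in KO by a log2 fold change of -0.62 ± 0.14 (edgeR adjusted p = 0.0132) and Tcf12 by -0.78 ± 0.19 (0.0179). Pbx2 lost its call without either replicate of D8 WT, and Tcf12 without replicate 3 of D8 KO or replicate 1 of D8 WT. In the test of the difference, the change over time of Pbx2 and Pbx3 was smaller in KO, by -0.89 ± 0.21 (edgeR adjusted p = 0.0358) and -1.0 ± 0.24 (0.0404), and both calls were lost with a replicate block. Pbx2 also lost this call without replicate 2 or 3 of D0 KO, without replicate 3 of D8 KO and without any 1 of the WT libraries, and Pbx3 without these or replicate 1 of D0 KO. None of these TALE partners, E proteins or Id genes was called at D0. At an unadjusted p under 0.05 there were 2 genes of each list, against 2072 of 14629 genes, and DESeq2 called 1 TALE partner, Pknox2.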

How the data were processed

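The authors deposited raw counts for each gene, 1 table from embryos and 1 from cells. Tools named, without roles, in the submitters' processing notes are BWA, CASAVA 1.8 and TopHat2 2.0.9, with mm10 as build. Embryo libraries were made with Nextera XT, per the labels' protocols. How reads were counted, with which annotation and strand setting, is not given in the sources used here, and overlapping genes may share counts. Columns were matched to samples by name, and 6 embryo columns matching no sample were not used. The genomic libraries of the series were not analysed here.

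The 8 genes, the 13 other lists and the tests were chosen with earlier results of these data known, and 1 listed gene is not reported here. Each table was filtered (edgeR's filterByExpr, minimum count 10, total 15), scaled by TMM and fitted in 1 model over all its groups, without a replicate block (edgeR 4.0.16, R 4.3.3, robust quasi-likelihood). P-values were adjusted by Benjamini-Hochberg over all genes tested, with a threshold of 0.05. The text names all 8 genes, up to 4 called and 2 uncalled genes of a list, and the 3 most alike genes per member. Alternatives were DESeq2 1.42.0, its size factors, total counts, other filters, a replicate block and leaving out each library. The edgeR fit was also run on counts simulated from its own fitted spread, and no result above rests on this run. Each SE is the size of the fold change over the square root of the test's F, so it reflects the fitted spread among libraries. The limits for 0 counts cover counting error only. Promoters came from RefSeq (GRCm38.p6).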

Additional observations from a re-analysis of the deposited data

How the results depend on the processing

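Scaling, filter, tool and left-out libraries were varied for every value of the 8 genes and for the counts of genes called. Of 400 alternative values of the embryo fold changes 364 stayed within 1 SE, 36 moved further and 30 in all changed sign. Of 415 in cells 404 stayed on their side of the threshold, 3 lost and 5 gained a call and 3 had no adjusted p. The sign changed in 27 of those 404, all of folds that passed no threshold. Without replicate 1 of D8 WT, Foxc2 went from 1.04 to -0.52 for WT over time and from -0.83 to 0.75 for KO against WT at D8. Meis1 went from -0.19 to 0.95 at D8 without replicate 2 of D8 WT. The fold of Alx1 for P against A at E7.5 lay between -7.10 and -5.69 and that of Meis2 between 0.89 and 2.77 over 10 alternatives. For AM against A, Alx1 changed sign without replicate 1 of AM (-0.17). For P against A at E7.0, Foxc2, Prrx1 and Tcf15 changed sign without replicate 2 of P. Of 208 levels under other scalings 12 moved by over 1 SD. Between KO and WT at D8, DESeq2 and total counts each called 1 of the 7 genes tested in cells, Meis2. Over all genes these 2 settings called 3658 and 2789, and edgeR with TMM called 2999. Scaling by total counts shifted the median log2 fold change of all genes to -0.43 for P against A, 0.46 for AM against P and 0.43 for A over time.

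Counts over all genes moved far more, and the cause was not tested. With DESeq2, the genes called numbered 14 for P against A at E7.0, 238 at E7.5, 581 for AM against A, 123 for AM against P, 583 for A over time, 444 for KO against WT at D0 and 1780 for the difference of the change over time between KO and WT. In edgeR with its filter they were 1, 34, 226, 16, 85, 36 and 770. Without a filter they were 71, 391, 653, 189 and 632 in the embryo comparisons in that order, and 70 for KO against WT at D0. With total counts they were 10 for P against A at E7.5 and 161 for A over time, and the share of higher calls went from 85.3 to 50% and from 30.6 to 72%. That share went from 37.5 to 90.9% for AM against P, from 51.9 to 62.4% for WT over time, from 49 to 37.8% for KO against WT at D8 and from 41 to 27.1% for the difference between KO and WT.

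Same-numbered embryo libraries deviated together (r = 0.277 to 0.563), but the labels do not say that a number marks a shared source and each group has 2 libraries, so numbers were not taken as pairs. With a replicate block the calls numbered 78 for P against A at E7.5, 370 for AM against A, 28 for AM against P, 230 for A over time and 5 for KO against WT at D0. The block changed no call of the 8 genes in cells.

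Leaving out 1 library gave 0 calls for P against A at E7.0 in each case. It gave 0 (without replicate 1 of A) to 76 (replicate 2 of A) for P against A at E7.5, 36 (replicate 1 of A) to 205 for AM against A, 0 (replicate 1 of AM or P) to 10 for AM against P and 14 (replicate 1 of E7.5) to 163 (replicate 2 of E7.0) for A over time. In cells it gave 3 (replicate 3 of KO) to 15 for KO against WT at D0, 773 (replicate 1 of WT) to 5461 (replicate 1 of KO) at D8 and 7 (replicate 2 of D0 WT) to 3591 (replicate 1 of D8 KO) for the difference between KO and WT. A lone library left in a group is assumed to vary like the other groups.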
